A study of Mus musculus with 10 samples.

Results

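The developmental pluripotency-associated (Dppa) genes examined were Dppa2, Dppa4, Dppa3 and Dppa5a, which were read in RNA-seq of mouse embryonic stem cells (ESC). They were found by naming each deposited 3′UTR feature from the mouse gene annotation at its mm10 coordinates and summing features with identical coordinates into a site. The 4 genes gave 5 features at 4 sites, out of 43031 features at 28706 sites in the series. They were selected on their TPM in these same libraries, so their levels and fold changes are given as a description. Whether a member met the threshold used for all sites is stated below but is not read as a test.

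The groups were WT ESC, DIDO3ΔE16 ESC and DIDO3ΔCT+HADIDO3 ESC, each with 3 libraries. All came from C57BL/6 mice and were grown in serum with LIF on mitomycin-treated embryonic fibroblasts or gelatin. DIDO3ΔE16 cells are homozygous for loss of the floxed exon specific to DIDO3, which was deleted with a Cre driven by Sox2. DIDO3ΔCT cells carry a constitutive C-terminal deletion that affects the same exon, and here they stably express HA-tagged DIDO3 under puromycin selection, so this group has both the deletion and the added protein. The number of clones per group is not given in the sources used here, so the SD and SE measure only the spread between these libraries, which may be technical. The labels name 4 WT samples, but the library number of replicates 2 and 3 is the same, and they were counted as 1 library, WT replicate 2-3.

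The Dppa genes are known as markers of pluripotent cells and the germ line, and they do not form a single protein family. DPPA2 and DPPA4 are related SAP-domain proteins that bind chromatin together and are known to promote Dux and other genes of the 2-cell stage in ESC. DPPA3, also called Stella or PGC7, protects the maternal genome of the zygote from demethylation and restrains UHRF1. DPPA5A is a KH-domain RNA-binding protein of ESC that is related to OOEP and KHDC3.

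Coverage multiplied by feature length ranged from 1.46 Gb in DIDO3ΔE16 replicate 1 to 2.61 Gb in DIDO3ΔCT+HADIDO3 replicate 3, and 1 TPM (a share of the library corrected for feature length) stood for a mean coverage of 0.434 to 0.775. Of the ESC markers, Pou5f1, Sox2, Zfp42, Utf1 and Lin28a were at 53.4 TPM or more in all libraries, while Nanog was at 3.10 TPM in WT replicate 4 and at 664 to 1177 TPM in the others. The targeted gene Dido1, on the reverse strand of chromosome 2, had 3 sites that differed in opposite directions. The last in the gene (180655963 to 180659338) was at 16.1 ± 2.17 TPM for WT, 0.455 ± 0.129 for DIDO3ΔE16 and 11.5 ± 0.578 for DIDO3ΔCT+HADIDO3 (SD, n = 3). The site at 180678954 to 180683548 was likewise lower in DIDO3ΔE16 (50.3 ± 1.64, 6.62 ± 0.444 and 44.8 ± 1.59), and that at 180663936 to 180669364 was higher there (4.82 ± 0.0709, 89.5 ± 7.29 and 8.13 ± 0.725). Of 11659 sites with a mean of at least 10 TPM, 1720 (14.8%) differed at least 8-fold between libraries of the same group. The share was 8.15% for sites of 1 feature and 25.7% for sites of 2 or more. No member was among them, and the highest library of a group exceeded the lowest at most 1.31-fold for Dppa2, Dppa4 and Dppa5a and 1.56-fold for Dppa3. The labels give each library a code that resembles a flow cell name, and the codes of WT replicates 1 and 4 begin differently from all others. The labels do not say what the codes mark. With the start of the code as a covariate, which leaves WT replicate 2-3 as the WT value, the log2 differences of Dppa2, Dppa4, Dppa3 and Dppa5a from WT were 1.03, 0.02, -1.48 and 0.16 in DIDO3ΔE16, and -0.66, -0.34, -2.32 and -0.34 in DIDO3ΔCT+HADIDO3.

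Each site is a window made of the 3′UTR of a UCSC transcript and the 2 kb downstream of it. On chromosome 16, Dppa4 (ENSMUSG00000058550.15) was read at 48293733 to 48296292 and Dppa2 (ENSMUSG00000072419.5) at 48318712 to 48321513, both on the forward strand and 22.4 kb apart. Dppa3 (ENSMUSG00000046323.8) was read on the forward strand of chromosome 6 at 122630006 to 122632271. Dppa5a (ENSMUSG00000060461.5) was read on the reverse strand of chromosome 9 at 78365054 to 78367235. The annotated 3′UTR made up 802 bp of the Dppa2 window, 560 bp for Dppa4, 266 bp for Dppa3 and 182 bp for Dppa5a, so the added 2 kb formed 71.4% to 91.7% of the window. More transcript and more reads past the annotated end cannot be told apart within such a window. No other site and no other annotated gene shared a base with the 4 windows on either strand. A search of the annotated parts against all annotated transcripts (at least 75 bases at 90% identity) found no near copy for Dppa2, Dppa4 or Dppa3. For Dppa5a, 178 of the 182 bases matched a transcript of Pigp at 95.5% identity, so reads of this stretch could have been placed at either gene.

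In WT, Dppa5a was the most abundant member, with 472 ± 44.0 TPM (SD, n = 3), followed by Dppa2 with 160.4 ± 7.66, Dppa4 with 134 ± 2.89 and Dppa3 with 15.8 ± 1.23. The WT libraries of these 4 genes did not overlap, so the order was the same in each library. The order of Dppa2 and Dppa4 depends on the length used: with all reads assigned to the annotated 3′UTR alone, Dppa4 would be at 611 ± 13.2 and Dppa2 at 560.3 ± 26.8. Among 20527 sites above 0 in all libraries, Dppa5a stood at the 99.0 percentile in WT and Dppa3 at the 53.7 percentile. The order Dppa5a, Dppa2, Dppa4, Dppa3 was also seen in DIDO3ΔE16. In DIDO3ΔCT+HADIDO3, Dppa2 and Dppa4 overlapped.

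**Figure D1:**
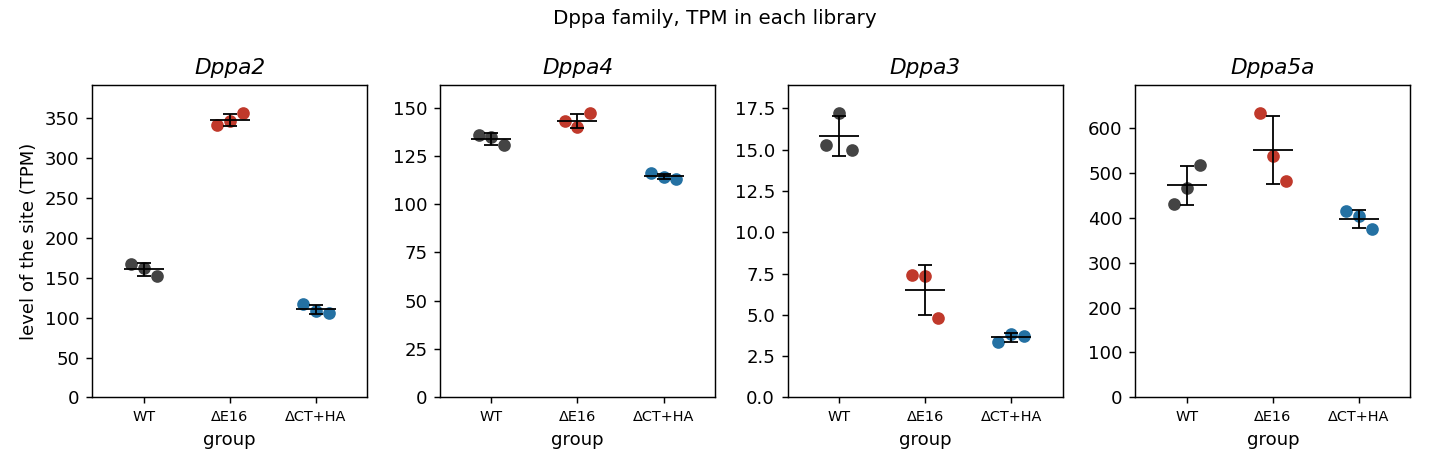
TPM of the sites of Dppa2, Dppa4, Dppa3 and Dppa5a (vertical axes from 0, each with its own scale) in WT, DIDO3ΔE16 (ΔE16) and DIDO3ΔCT+HADIDO3 (ΔCT+HA). Points are libraries, horizontal bars are means and whiskers are SD (n = 3). Dppa2 is highest in ΔE16 at 341 to 356 TPM, and Dppa3 is highest in WT at 15 to 17.2 TPM.

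Dppa2, the chromatin-binding partner of DPPA4, was 2.17-fold higher in DIDO3ΔE16 than in WT and 1.45-fold lower in DIDO3ΔCT+HADIDO3 than in WT. Its site held 167, 162 and 152 TPM in WT replicates 1, 2-3 and 4. The DIDO3ΔE16 libraries were at 341, 346 and 356 TPM, and the DIDO3ΔCT+HADIDO3 libraries at 117, 108 and 106 TPM. All DIDO3ΔE16 libraries lay above all WT libraries and all DIDO3ΔCT+HADIDO3 libraries lay below them. The group means were 348 ± 7.39 in DIDO3ΔE16 and 110.4 ± 6.12 in DIDO3ΔCT+HADIDO3 (SD, n = 3). On the log2(TPM + 0.1) scale the difference was 1.05 (SE 0.034) in DIDO3ΔE16 and -0.64 (SE 0.064) in DIDO3ΔCT+HADIDO3, and 1.67 (SE 0.058) between the mutants. Among all sites tested the DIDO3ΔE16 difference stood at the 88.2 percentile. Both comparisons with WT share the WT libraries and are not independent. Dppa2 ranked 1447 of 20527 sites by mean TPM in WT, and its rank was 385 in DIDO3ΔE16 and 2301 in DIDO3ΔCT+HADIDO3. Mean coverage of the window was 89.1 to 112 for WT, 148 to 226 for DIDO3ΔE16 and 69.2 to 82.0 for DIDO3ΔCT+HADIDO3.

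Dppa4 lies next to Dppa2 and differed less between the groups. Its site held 136, 135 and 130.4 TPM in WT replicates 1, 2-3 and 4. The DIDO3ΔE16 libraries were at 143, 139.8 and 147 TPM, and the DIDO3ΔCT+HADIDO3 libraries at 116, 114 and 113 TPM. In TPM the 3 groups did not overlap, but after scaling between libraries the DIDO3ΔE16 range (136 to 143) overlapped that of WT (135 to 138). The scaled log2 difference was 0.04 (SE 0.030) in DIDO3ΔE16 and -0.33 (SE 0.036) in DIDO3ΔCT+HADIDO3. Between the mutants it was 0.35 (SE 0.039).

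The Dppa4 window was listed as 2 features with identical coordinates, and the split between them varied among libraries of the same group. Feature uc007zjl.1 was at 0.241 and 0.227 TPM in WT replicates 1 and 2-3 and at 46.7 TPM in WT replicate 4. In DIDO3ΔE16 it was at 0.266, 55.6 and 0.221 TPM, and in DIDO3ΔCT+HADIDO3 at 45.4, 39.9 and 44.6 TPM. The single features were thus split differently within WT and within DIDO3ΔE16, while their sum had a highest to lowest ratio of at most 1.05 in each group. The more abundant feature alone, uc007zjm.1, gave a log2 difference of -0.80 (SE 0.206) in DIDO3ΔCT+HADIDO3 relative to WT in place of -0.33.

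The ratio of Dppa2 to Dppa4 TPM is free of scaling between libraries. It was 1.23, 1.21 and 1.17 in WT replicates 1, 2-3 and 4. In DIDO3ΔE16 it was 2.38, 2.47 and 2.42, and in DIDO3ΔCT+HADIDO3 it was 1.01, 0.951 and 0.94. The groups did not overlap in this ratio, so the neighbouring genes differed unequally from WT in each mutant, by more in DIDO3ΔE16 than in DIDO3ΔCT+HADIDO3. The distance to other sites was large on the Dppa4 side, where the nearest was Nectin3 at 1845 kb. On the other side of Dppa2 the nearest was Gm5485 at 75.9 kb, which was at 0.151 TPM or less in all libraries.

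**Figure D2:**
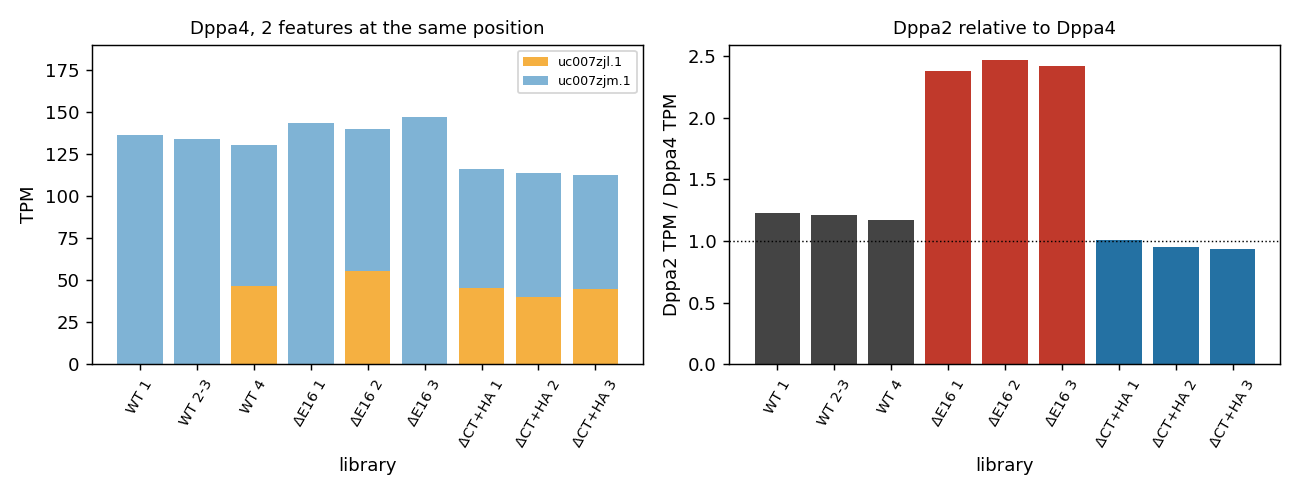
Left, TPM of the 2 Dppa4 features with identical coordinates, stacked for each library, with a sum of 113 to 147 TPM. Right, ratio of Dppa2 TPM to Dppa4 TPM in each library (dotted line at 1), which is 1.17 to 1.23 for WT, 2.38 to 2.47 for DIDO3ΔE16 (ΔE16) and 0.94 to 1.01 for DIDO3ΔCT+HADIDO3 (ΔCT+HA).

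Dppa3, the zygotic factor that restrains UHRF1, was lower than WT in both mutants, 2.43-fold in DIDO3ΔE16 and 4.36-fold in DIDO3ΔCT+HADIDO3. Its site held 15.3, 17.2 and 15 TPM in WT replicates 1, 2-3 and 4. The DIDO3ΔE16 libraries were at 7.44, 7.35 and 4.78 TPM, and the DIDO3ΔCT+HADIDO3 libraries at 3.36, 3.85 and 3.70 TPM. The 3 groups did not overlap, and DIDO3ΔE16 replicate 3 was the closest to the DIDO3ΔCT+HADIDO3 libraries. The log2 difference from WT was -1.35 (SE 0.201) in DIDO3ΔE16 and -2.19 (SE 0.092) in DIDO3ΔCT+HADIDO3. Between the mutants it was 0.82 (SE 0.203), with DIDO3ΔE16 higher, and 0.69 with a pseudocount of 1, which is under the threshold of 0.7 used below. Without DIDO3ΔE16 replicate 3 the log2 difference of DIDO3ΔE16 from WT was -1.14. Mean coverage of the window was 8.78 to 10.2 in WT and 2.26 to 4.21 in the mutants, the lowest of the members, and only 266 bp of it is annotated 3′UTR. Less Dppa3 RNA per cell and fewer cells that hold Dppa3 RNA cannot be told apart in bulk RNA.

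Dppa5a, the KH-domain protein gene, had the highest level and the widest spread in TPM. Its site held 430.2, 467 and 518 TPM in WT replicates 1, 2-3 and 4. The DIDO3ΔE16 libraries were at 632, 536 and 482 TPM and overlapped WT. The DIDO3ΔCT+HADIDO3 libraries were at 414, 404 and 375 TPM, all below the lowest WT library. The log2 difference from WT was 0.15 (SE 0.133) in DIDO3ΔE16 and -0.35 (SE 0.096) in DIDO3ΔCT+HADIDO3. Between the mutants it was 0.48 (SE 0.119). Without DIDO3ΔE16 replicate 1 the DIDO3ΔE16 difference was 0.04, and without DIDO3ΔE16 replicate 3 it was 0.25.

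The 4 genes together reached 781 ± 33.5 TPM in WT libraries (SD, n = 3), against 1047 ± 69.3 for DIDO3ΔE16 and 626 ± 26.9 for DIDO3ΔCT+HADIDO3. Dppa5a made up 60.3% ± 3.03 of this sum in WT, and 52.3% ± 3.76 and 63.5% ± 0.702 in DIDO3ΔE16 and DIDO3ΔCT+HADIDO3. Dppa2 accounted for 20.6% ± 1.86 of the WT sum, and for 33.3% ± 2.81 of that of DIDO3ΔE16 and 17.6% ± 0.404 of that of DIDO3ΔCT+HADIDO3. The Dppa3 share was 2.03% ± 0.185 in WT, and 0.620% ± 0.121 and 0.583% ± 0.0579 in the mutants, whose libraries overlapped in this share.

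**Figure D3:**
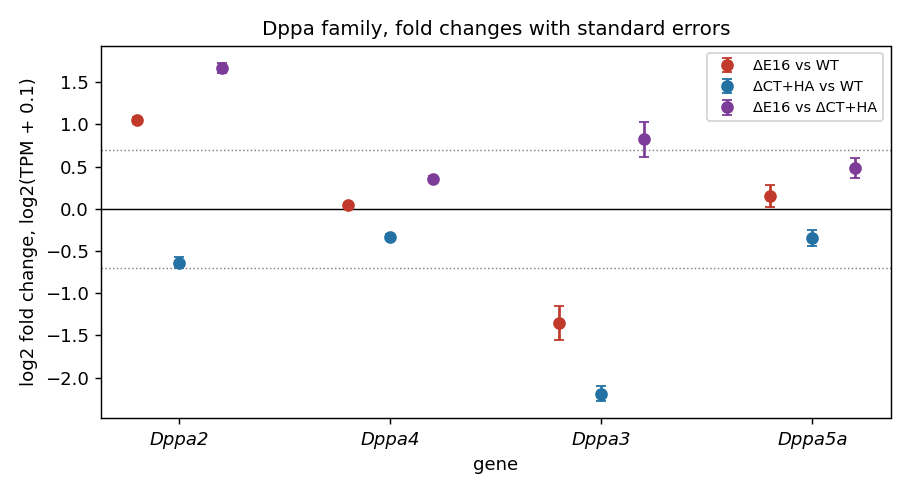
Log2 difference on the log2(TPM + 0.1) scale (vertical axis) of the 4 Dppa genes for DIDO3ΔE16 (ΔE16) and DIDO3ΔCT+HADIDO3 (ΔCT+HA) relative to WT and for ΔE16 relative to ΔCT+HA. Points are limma estimates from 3 libraries per group, bars are SE, and dotted lines mark 0.7 in either direction. Dppa2 is above 0 in ΔE16 (1.05) and below 0 in ΔCT+HA (-0.64), and Dppa3 is below 0 in both (-1.35 and -2.19).

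Across all sites, a site was called at an absolute log2 difference of at least 0.7 and a limma adjusted p (Benjamini-Hochberg) under 0.05. In DIDO3ΔE16 relative to WT, 15.1% of 21063 sites met this, as did Dppa2 and Dppa3 among the members. In DIDO3ΔCT+HADIDO3 relative to WT the share was 17.3% of 20879 sites, and Dppa3 met it. Between the mutants it was 27.4% of 21172 sites, and Dppa2 and Dppa3 met it. Libraries of the groups did not overlap in TPM at 49.4% of sites in the first comparison, 53.5% in the second and 61.6% in the third. The members did not overlap for 3, 4 and 4 of the 4 genes in these comparisons. Since the members were chosen on these values, nothing is read from their counts. The median log2 difference of the members was 0.10, -0.49 and 0.65 in these comparisons, against -0.01, -0.01 and 0.01 for all sites.

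Markers of the feeder fibroblasts also differed between the groups. Their 14 sites summed to 79.2 to 118 TPM for WT, 244 to 257 TPM for DIDO3ΔE16 and 99.8 to 107 TPM for DIDO3ΔCT+HADIDO3. Most of the WT range came from Lox, at 37.9, 5.97 and 38.5 TPM in WT replicates 1, 2-3 and 4. Lox was at 85.3 to 92.2 TPM in DIDO3ΔE16 and was not called there (2.05, SE 0.80). Most of the sum in DIDO3ΔCT+HADIDO3 came from Thy1 (54.4 ± 2.00 TPM, against 19.1 ± 0.838 in WT) and Pdgfrb (39.6 ± 1.85 TPM, against 5.16 ± 0.146), while Col1a1 was at 1.14 ± 0.316 TPM there, against 11.7 ± 1.63 in WT (SD, n = 3). Of the 12 tested in DIDO3ΔE16, 9 rose and the other 3 were not called (limma), with the collagen genes Col3a1 (log2 difference 1.43, adjusted p = 0.00838) and Col5a2 (1.26, adjusted p = 0.000377), the PDGF receptor gene Pdgfrb (1.73, adjusted p = 0.00027) and Twist2 (1.41, adjusted p = 0.0121) leading. Over all sites the called share was 15.1% in DIDO3ΔE16 and 17.3% in DIDO3ΔCT+HADIDO3. Of the 9 tested in DIDO3ΔCT+HADIDO3, 2 rose and 6 fell. Pdgfrb (2.82, adjusted p = 5.3e-05) and Thy1 (1.40, adjusted p = 0.000133) rose, and Col1a2, the largest decrease, fell by 5.84 (adjusted p = 5e-05) to 0.229 to 0.246 TPM. Lox, Col5a2 and S100a4 also fell there. Lum and Dcn were at 0.129 TPM or less in all libraries, and Col3a1 and Twist2 were listed at 0 in all DIDO3ΔCT+HADIDO3 libraries. These marker levels were higher in the group with the highest Dppa2, and their part in the Dppa differences was not tested.

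Genes of the 2-cell stage linked to DPPA2 and DPPA4 rose in DIDO3ΔE16 at all sites tested and in DIDO3ΔCT+HADIDO3 at 9 of 18. Of the 26 genes listed, 20 had a site. In DIDO3ΔE16, where Dppa2 was higher, all 20 rose relative to WT, with a median log2 difference of 2.23 against -0.01 over all sites. The largest increases were those of Gm4340 (3.24, SE 0.24), the 2-cell genes Tcstv3 (2.77, SE 0.28) and Tcstv1 (2.70, SE 0.19), and Zscan4a (2.67, SE 0.10), a telomere-associated zinc finger gene. Zscan4a was at 13.8, 12.9 and 13.7 TPM for WT, 100.5, 91.8 and 79.2 TPM for DIDO3ΔE16 and 37.8, 39.8 and 39.3 TPM for DIDO3ΔCT+HADIDO3. In DIDO3ΔCT+HADIDO3, where Dppa2 was lower, 9 of the 18 tested rose and the others were not called, with a median of 1.12. Syce1 (1.88, SE 0.35), a synaptonemal complex gene, led, followed by Gm4340 (1.84, SE 0.18), Zscan4f (1.82, SE 0.20) and Zscan4c (1.77, SE 0.07). Between the mutants, 14 of 18 were higher in DIDO3ΔE16 and the others were not called. Tdpoz1 and Tdpoz2 were left out of both comparisons with DIDO3ΔCT+HADIDO3, because some of its libraries were at 0 TPM. Tdpoz1 was at 0.834, 0.173 and 0.341 TPM in WT and at 0, 0.154 and 0 TPM in DIDO3ΔCT+HADIDO3. Tdpoz2 was at 1.33, 1.52 and 1.26 TPM in WT and at 0.166, 0 and 0.096 TPM in DIDO3ΔCT+HADIDO3. Both were thus listed lower there than in WT, without a test. The adjusted p (limma, Benjamini-Hochberg over all sites) of the differences given here with an SE ranged from 0.000146 to 0.0129. Over all sites the called share was 15.1% in DIDO3ΔE16, 17.3% in DIDO3ΔCT+HADIDO3 and 27.4% between the mutants. The list was chosen with earlier results of these data known, so its counts and p-values are a description only. The summed feeder markers were also highest in DIDO3ΔE16, as given above, and their part in this result was not tested. Many of the 2-cell genes are near-identical copies of each other, so the share of reads given to each is uncertain. No site was found for Duxf3, the mouse Dux gene.

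Zfp809 was at 117, 111 and 102 TPM for WT, 198, 202 and 213 TPM for DIDO3ΔE16, and 109.7, 96.7 and 97.1 TPM for DIDO3ΔCT+HADIDO3. This zinc finger gene was the smallest of the 20 increases (0.83, SE 0.05).

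Genes of DNA methylation were followed because DPPA3 acts on UHRF1. In DIDO3ΔE16, 2 of 16 rose and 1 fell, and in DIDO3ΔCT+HADIDO3 1 rose and 1 fell. These shares are near those of all sites (15.1% and 17.3%). Libraries of a group differed widely at Dnmt1 (63.8, 6.23 and 6.69 TPM in WT), Usp7 (316, 55.7 and 298 TPM in WT) and Dnmt3b (198, 13.9 and 219.9 TPM in DIDO3ΔE16). A missing call there does not show equal levels. Dnmt3l was not called in DIDO3ΔCT+HADIDO3 (-3.43, SE 1.21). Its libraries there (56.8, 3.52 and 58.2 TPM) all lay below those of WT (225, 232 and 232 TPM). Uhrf1 was at 389.7 to 415 TPM for WT, 376 to 391 TPM for DIDO3ΔE16 and 416 to 429 TPM for DIDO3ΔCT+HADIDO3, with log2 differences of -0.13 (SE 0.04) and -0.03 (SE 0.05). Tet3 (0.87, adjusted p = 0.0017) and Tet2 (0.79, adjusted p = 0.00125), which encode 5-methylcytosine dioxygenases, rose in DIDO3ΔE16. Trim28, which encodes the corepressor KAP1, fell there by 0.88 (adjusted p = 0.000401) and rose by 0.74 (adjusted p = 0.000824) in DIDO3ΔCT+HADIDO3. The de novo methyltransferase gene Dnmt3a fell by 1.13 (adjusted p = 0.000108) in DIDO3ΔCT+HADIDO3. Sites of several features made 12 of these 16, and the 1-feature sites alone gave 1 called of 4 in each comparison with WT.

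Naive pluripotency genes, the setting in which the Dppa genes are expressed in ESC, gave 1 call of 24 in DIDO3ΔE16 and 8 of 24 in DIDO3ΔCT+HADIDO3. Over all sites these shares were 15.1% and 17.3%. By limma, 11 and 14 of the 24 had an unadjusted p under 0.05. WT libraries differed widely at Esrrb (5.18, 1155 and 8.78 TPM), Sall4 (286, 4.72 and 269.7 TPM) and Nanog (given above). The missing calls at such sites do not show equal levels. The single call in DIDO3ΔE16 was Tcl1, a cofactor of AKT, at 117, 3.96 and 9.39 TPM in WT and 0.347 to 0.529 TPM in DIDO3ΔE16. It was lost without WT replicate 4 and without any DIDO3ΔE16 library. In DIDO3ΔCT+HADIDO3, Zfp42 (1.65, adjusted p = 9.1e-05) and Prdm14 (0.90, adjusted p = 0.000299) rose. Fbxo15 (-0.98, adjusted p = 0.00824), Fgf4 (-0.87, adjusted p = 0.000244), Lin28a (-0.84, adjusted p = 0.000267) and Klf4 (-0.75, adjusted p = 0.00054) were among the 6 that fell. Without scaling, 2 rose and 3 fell.

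Most genes listed as formative and primed come up as ESC leave the naive state, but Gata6 and Sox17 in this list are endoderm genes. The listed genes moved in both directions. In DIDO3ΔE16, 4 of 17 tested rose and 3 fell, and in DIDO3ΔCT+HADIDO3 1 rose and 6 fell. The called shares over all sites were 15.1% and 17.3%. Sox1 (1.95, adjusted p = 0.000246), Sox3 (1.66, adjusted p = 0.00124), T (0.96, adjusted p = 0.0171) and Eomes (0.88, adjusted p = 0.00032) rose in DIDO3ΔE16. Otx2 fell there by 2.25 (adjusted p = 0.000725), Gata6 by 1.55 (adjusted p = 0.00436) and Lef1 by 1.37 (adjusted p = 0.0162). In DIDO3ΔCT+HADIDO3 Otx2 rose by 1.01 (adjusted p = 0.00119). Sox17 fell by 2.33 (adjusted p = 0.000817), Zic2 by 1.38 (adjusted p = 0.00154), Pou3f1 by 1.0 (adjusted p = 0.000531) and Gata6 by 0.98 (adjusted p = 0.00136).

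The KH-domain relatives of DPPA5A were listed with other genes of the maternal complex of OOEP, which are not its relatives, and with Dppa1. Of the 11 genes listed, 9 had a site and 4 were tested, namely the relatives Ooep and Khdc3 and the complex genes Tle6 and Padi6. None was called in DIDO3ΔE16 by limma, and 2 of the 4 had an unadjusted p under 0.05 there. Padi6 fell by 2.94 (adjusted p = 0.00563) in DIDO3ΔCT+HADIDO3. Dppa1 was at 0.069 TPM or less in all libraries.

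Between the mutants, the list genes differed as follows (log2 difference of DIDO3ΔE16 from DIDO3ΔCT+HADIDO3, limma, called). Over all sites, 27.4% were called in this comparison. Of the 2-cell genes, Pramef25 (2.66), Tcstv1 (2.02), B020004J07Rik (1.68) and Tcstv3 (1.60) were the most increased. Levels were low for B020004J07Rik (mean 1.5 TPM in DIDO3ΔE16 and 0.425 in DIDO3ΔCT+HADIDO3) and Tcstv3 (3.32 and 1.07). Of the DNA methylation genes, Dnmt3a (1.54), Tet3 (1.27), Tet2 (1.24) and Zfp57 (1.05) were higher and Trim28 (-1.65) was lower. Of the naive genes, Fbxo15 (1.5), Nr0b1 (0.98), Lin28a (0.82) and Sall4 (0.82) were among the 7 that were higher, and Tcl1 (-8.62) and Zfp42 (-1.60) were lower. The Tcl1 site shares bases with 2 other sites on its strand, so its value depends on how reads were split. Summed over the gene, Tcl1 was at 3.79, 3.98 and 3.4 TPM in DIDO3ΔE16 and 217, 298 and 215 TPM in DIDO3ΔCT+HADIDO3. Of the list of formative and primed genes, Fgf5 (1.64), Zic2 (1.62), Sox17 (1.58) and Eomes (1.56) were among the 8 that were higher. Otx2 (-3.29), Etv5 (-1.34) and Lef1 (-1.34) were lower. Mean levels in DIDO3ΔE16 and DIDO3ΔCT+HADIDO3 were low for Fgf5 (0.584 and 0.127 TPM) and Sox17 (1.92 and 0.553 TPM). Padi6 (2.87) was higher and Tle6 (-1.29) lower among the genes of the OOEP complex. Both were at low levels, with means of 1.98 and 0.22 TPM for Padi6 and 1.43 and 3.72 TPM for Tle6. Of the feeder markers, Lox (7.17), Col1a2 (6.84), Col5a2 (6.36) and Col1a1 (4.58) were among the 6 that were higher, and Pdgfrb (-1.11) and Thy1 (-0.75) were lower.

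**Figure D4:**
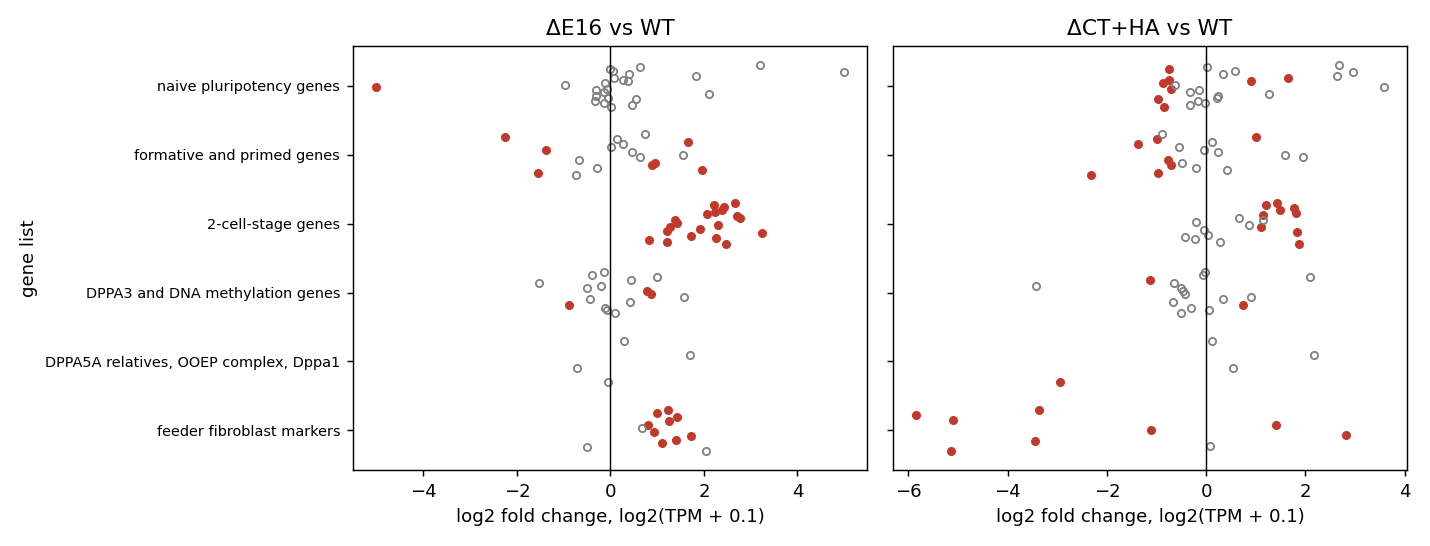
Log2 difference on the log2(TPM + 0.1) scale (horizontal axes) of the tested genes of each list for DIDO3ΔE16 (ΔE16, left) and DIDO3ΔCT+HADIDO3 (ΔCT+HA, right) relative to WT, each gene by its most abundant site. Filled red points were called, open grey points were not. All 20 tested genes of the 2-cell-stage list are called above 0 on the left and 9 of 18 on the right. Feeder collagen genes lie above 0 on the left and below 0 on the right.

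Sites near the Dppa genes were examined for shared differences. Next to Dppa3, the nearest were Gdf3, a TGF-beta family ligand gene, at 23.7 kb and Nanog at 81.3 kb. Gdf3 differed from WT by 0.46 (SE 0.05) in DIDO3ΔE16 and -0.33 (SE 0.06) in DIDO3ΔCT+HADIDO3, under the threshold of 0.7. The Nanog differences of 3.20 (SE 2.33) and 2.68 (SE 2.33) rest on WT replicate 4, as given above. Of the 8 sites tested within 250 kb of Dppa3, 1 was called in DIDO3ΔE16, lower (Foxj2), and 0 in DIDO3ΔCT+HADIDO3, where 4 had an unadjusted p under 0.05 (limma). Next to Dppa5a, Ooep at 7.67 kb differed by 0.29 (SE 0.06) and 0.12 (SE 0.05), and Omt2b at 33.4 kb was at 0.357 TPM or less. Within 250 kb of Dppa5a, 4 of 13 sites tested were called higher and 1 lower in DIDO3ΔE16, and 2 of 12 higher and 1 lower in DIDO3ΔCT+HADIDO3. The called share over all sites was 15.1% and 17.3%. Nectin3, the nearest site before Dppa4, fell by 0.84 in DIDO3ΔE16 (adjusted p = 0.000695).

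**Figure D5:**
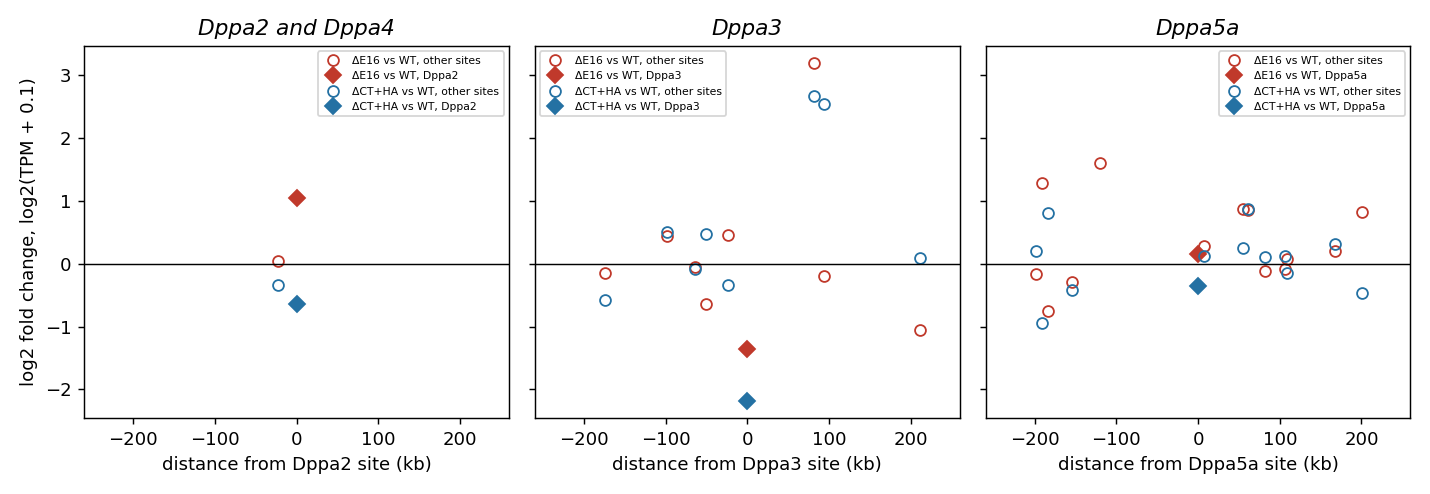
Log2 difference from WT on the log2(TPM + 0.1) scale (vertical axis) of tested sites within 250 kb (open circles) against their distance in kb from the site of Dppa2, Dppa3 or Dppa5a (filled diamonds at 0), for DIDO3ΔE16 (ΔE16) and DIDO3ΔCT+HADIDO3 (ΔCT+HA). The circle 22.4 kb to the left of Dppa2 is Dppa4. The 2 circles near 3 at 81.3 kb in the Dppa3 panel are Nanog (3.20 and 2.68), which was at 3.10 TPM in WT replicate 4. The ΔCT+HA circle at 2.54 beside them, at 93.5 kb, is Slc2a3. It was at 2106, 9.37 and 2386 TPM in WT replicates 1, 2-3 and 4.

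The genes whose pattern was most like each member were found by the Pearson correlation of scaled log2(TPM + 0.1) over the 9 libraries, among 11502 sites that were above 0 TPM in all libraries and had a mean of at least 10 TPM. The libraries fall into 3 groups, so such a correlation mainly describes the order of the groups. For Dppa2 these were Zfhx2 (r = 0.998), Dand5 (r = 0.998) and a site of Eomes (r = 0.997). Zfhx2 was at 73.8 to 80.9 TPM for WT, 369 to 379.9 TPM for DIDO3ΔE16 and 31.1 to 35.0 TPM for DIDO3ΔCT+HADIDO3. For Dppa4 they were Sppl3 (r = 0.995), Phf23 (r = 0.995) and Riok2 (r = 0.994). For Dppa3 they were Ralgapa2 (r = 0.993), Frrs1 (r = 0.986) and Socs7 (r = 0.985), whose differences were smaller than that of Dppa3, with -0.33 for Ralgapa2 in DIDO3ΔE16. For Dppa5a they were Atp6v0c (r = 0.983), Hspd1 (r = 0.980) and Vac14 (r = 0.977). Among the members themselves, r over the 9 libraries was 0.840 for Dppa2 and Dppa4 and 0.231 for Dppa2 and Dppa3.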

How the data were processed

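The 9 ESC libraries comprised 3 per group. Reads were mapped to mm10 by the authors (BWA-MEM 0.7.15), duplicates were taken out (Picard), and StringTie (1.3.3) was run on 3′UTRs of UCSC transcripts extended by 2 kb. The values are TPM per feature as deposited by the authors, without scaling between libraries, and mean coverage was used for depth only. Features were named from GENCODE M21 and those with identical coordinates were summed.

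For each comparison, sites above 0 TPM in every library were scaled with the trimmed mean of their log2 ratios, leaving out 30% of sites at either end, log2(TPM + 0.1) was fitted with limma (3.58.1, R 4.3.3; trend and robust), and p-values were adjusted by Benjamini-Hochberg over all sites tested. The authors used edgeR. Counts were not used here, so limma took its place. Alternatives were other pseudocounts, filters, scalings, summing and covariates, fits without each library and a fit blocked by replicate number. The fit was tested on simulated data in which the spread of each site was capped. The large jumps between libraries of a group were not simulated, so that test does not cover them. Summaries used Python (3.11.15), numpy (2.4.6) and pandas (2.3.3). Near copies were searched with blastn.

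The members and gene lists were chosen with earlier results of these data known. Named genes are the members, the nearest gene on each side, up to 4 called genes per list, direction and comparison by size, the 3 genes most alike in pattern, and Dido1. Foxj2, Zfp809, Uhrf1, Dppa1, Khdc3, Fbn1, Ick, C920006O11Rik, Slc2a3, Esrrb, Tdpoz1 and Tdpoz2 were named after their values were seen.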

Additional observations from a re-analysis of the deposited data

Results flagged for a closer look

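Results are given here because all libraries of DIDO3ΔE16 lay on one side of all WT libraries and all libraries of DIDO3ΔCT+HADIDO3 on the other. For the members this difference between the mutants is a description only, since they were chosen on these values. Whether they met the threshold is not read as a test. Both comparisons use the same 3 WT libraries. With 3 libraries per group, no search for single outlying libraries was made.

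Dppa2 differed from WT by 1.05 on the log2 scale in DIDO3ΔE16 and by -0.64 in DIDO3ΔCT+HADIDO3. Dppa4 differed by 0.04 and -0.33, and its DIDO3ΔE16 and WT libraries overlapped once scaled. Among the list genes, the sites within 250 kb of a member and the genes most alike in pattern, each by its most abundant site, 11 other genes were called in opposite directions. The share of all sites called in opposite directions was not computed, so nothing is read from this count. Otx2 (-2.25 and 1.01), Trim28 (-0.88 and 0.74) and Eomes (0.88 and -0.70) were in the lists. Eomes was at the threshold of 0.7 in DIDO3ΔCT+HADIDO3, and another of its sites (0.97 and -0.65) was not called there. The feeder fibroblast genes were Col5a2 (1.26 and -5.10), Col1a2 (1.0 and -5.84), S100a4 (1.11 and -3.44), Col1a1 (1.24 and -3.36) and Fbn1 (0.93 and -1.11). Near Dppa5a these were Ick (1.29 and -0.94) and C920006O11Rik (-0.75 and 0.81). Zfhx2, the gene most like Dppa2 in pattern, was at 2.21 and -1.34. It was picked for that likeness, so its opposite directions follow from those of Dppa2.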

How the results depend on the processing

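The sign of all 12 member differences was kept under every alternative run. Without scaling, Dppa2 differed by 1.12 and -0.54 from WT in DIDO3ΔE16 and DIDO3ΔCT+HADIDO3, Dppa4 by 0.10 and -0.23, and Dppa3 by -2.09 in DIDO3ΔCT+HADIDO3. With quantile normalization, Dppa2 was at 1.14 and -0.52, Dppa4 at 0.13 and -0.22, and Dppa5a at -0.21 in DIDO3ΔCT+HADIDO3. Single features gave Dppa4 0.01 and -0.80 from WT and 0.79 between the mutants. A pseudocount of 1 gave Dppa3 -1.95 in DIDO3ΔCT+HADIDO3, and 0.69 between the mutants (0.82 otherwise), which is under the threshold of 0.7. The start of the library code as a covariate gave Dppa3 -2.32 in DIDO3ΔCT+HADIDO3. Leaving out each library gave the following ranges: Dppa2 1.02 to 1.07 in DIDO3ΔE16, -0.70 to -0.60 in DIDO3ΔCT+HADIDO3; Dppa4 0.02 to 0.06 and -0.36 to -0.31; Dppa3 -1.47 to -1.14 and -2.23 to -2.13, and 0.71 (without DIDO3ΔE16 replicate 1) to 1.03 between the mutants; Dppa5a 0.04 to 0.25 and -0.42 to -0.27. The cause was not tested.

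Deviations of same-numbered libraries of different groups were hardly correlated (r 0.0044 to 0.0512 over 7 pairs). The 20 other pairs were at -0.0527 to 0.0404. The 7 values were all above 0 but small, and the main fit did not pair libraries by replicate number. With the replicate block, 0 sites were called in either comparison with WT by limma (6198 and 6915 with an unadjusted p under 0.05). Between the mutants 5183 were called. Calls of list genes, added up over all lists and comparisons, numbered 48 in place of 124, where a gene can count in more than 1 comparison. In the comparisons with WT, WT replicate 4 and replicate 3 of the mutant had no partner. The block then left few degrees of freedom, so the lack of calls does not show that the differences from WT were absent. With it, Dppa2 was at 1.01 in DIDO3ΔE16 and Dppa5a at -0.21 in DIDO3ΔCT+HADIDO3. Dido1 summed over its sites differed by -0.23 in DIDO3ΔCT+HADIDO3, in place of 0.64 at its site with the highest mean over all libraries (the one higher in DIDO3ΔE16). Restriction to 1-feature sites and the level per annotated 3′UTR were chosen after seeing the data.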
